A study of Mus musculus with 6 samples.

Results

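Opposite-strand transcripts are RNAs read from the DNA strand opposite a protein-coding gene, and mouse nomenclature names them after that gene with the suffix os. All 300 genes whose name is that of another gene in the table followed by os and optional digits were taken, leaving out names that begin with Dlx. They are 300 of the 55416 genes counted, under 299 distinct names, and stand beside 258 distinct partners. In the GENCODE M21 mouse annotation all 300 were found by gene ID, 11 of them under another symbol, and all 300 lie on the strand opposite their partner. That annotation types 256 of them as antisense RNA, 16 as processed transcript, 12 as intergenic long non-coding RNA and 11 as protein coding.

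RNA was measured by sequencing in ganglionic eminences, the embryonic ventral forebrain domes that produce GABAergic neurons, dissected from E13.5 embryos. The groups are 3 libraries of Dlx1/Dlx2 double knockout mice and 3 of wild-type littermates. The labels name no knockout allele and no strain, and do not say whether a library is 1 embryo or a pool, so the p-values measure the spread between these libraries. The tissue was flash frozen, total RNA was extracted with DNase digestion, and libraries were made after ribosomal RNA removal with a kit that keeps strand. Dlx1 and Dlx2 encode homeodomain transcription factors needed for the differentiation and migration of forebrain GABAergic neurons.

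Some opposite-strand transcripts start beside their partner's promoter and run away from it (a divergent pair), others lie inside the partner or face it tail to tail (a convergent pair). Many are non-coding and low in abundance, some regulate the neighbouring gene or bind microRNAs, and a few encode proteins with no relation to the partner. In embryonic brain, pairs of this kind are common at genes for developmental transcription factors.

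The deposited totals ran from 56618090 to 70114173 counted reads per library. A low-count floor of 3 reads corresponds to between 0.0428 and 0.053 CPM (reads scaled to a common library size). A count of 0 means no reads. Dlx2 was at 282 to 313 CPM in the wild-type and 7.50 to 10.99 CPM in the double-knockout libraries, and Dlx1 at 434 to 446 and 74.9 to 94.0 CPM. Levels of Y-linked genes were 206 to 214 CPM in wild-type library 1 and double-knockout libraries 2 and 3 and at most 0.168 CPM in the other 3, so the groups are not matched in embryo sex. Double-knockout library 3, the deepest, stood apart from its group: counts differed from libraries 1 and 2 by a chi-square per gene of 32.8 and 27.1, against 12.03 between those 2 and 18.8 to 19.9 among wild-type libraries. Over the ventral telencephalic markers the summed level was 1529 to 1593 CPM among wild-type and 1148 to 1347 CPM among double-knockout libraries, with Gad1, Gad2, Lhx6 and Ebf1 called lower, Gsx2 and Nkx2-1 called higher and 2 of the 8 not called. Markers of hypothalamus and other diencephalon summed to between 99.97 and 123.1 CPM in wild type and between 238.3 and 246.2 CPM in the double knockout, with 1 of 7, Otp, called higher. Otp alone averaged 9.44 and 118 CPM, and of the other 6 only Tcf7l2 did not overlap between the groups. Of that list, Rax was at 0 in all wild-type libraries and averaged 0.0161 CPM in the double knockout (2, 1 and 0 reads), below that floor. Dorsal cortex markers summed to between 822.9 and 842.5 CPM in wild type and between 629.3 and 654.1 CPM in the double knockout. Of these 6, Neurod2 was called lower (adjusted p = 0.00127), and each of the 6 was lower without overlap. The lists for blood, endothelium, microglia, meninges and eye overlapped between the groups.

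Whether reads of the 2 strands were told apart decides what each value below means. Of the 366 genes whose exons lie wholly under exons of the opposite strand, 364 (99.5%) were at 0 in all 6 libraries, and for antisense genes this was 76 of 76. Among antisense genes with no such cover 146 of 1219 were at 0. This is the pattern that counting without regard to strand gives, because a read in such a stretch belongs to 2 genes and is dropped. An os exon lying over a partner exon therefore added no reads, which applies in part to 166 of the 300 transcripts. An os exon lying over a partner intron can also collect unspliced RNA of the partner, and the 2 sources cannot be told apart in these counts. For the transcripts on which the results turn, the share of exon bases in partner exons and introns is given.

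**Figure D1:**
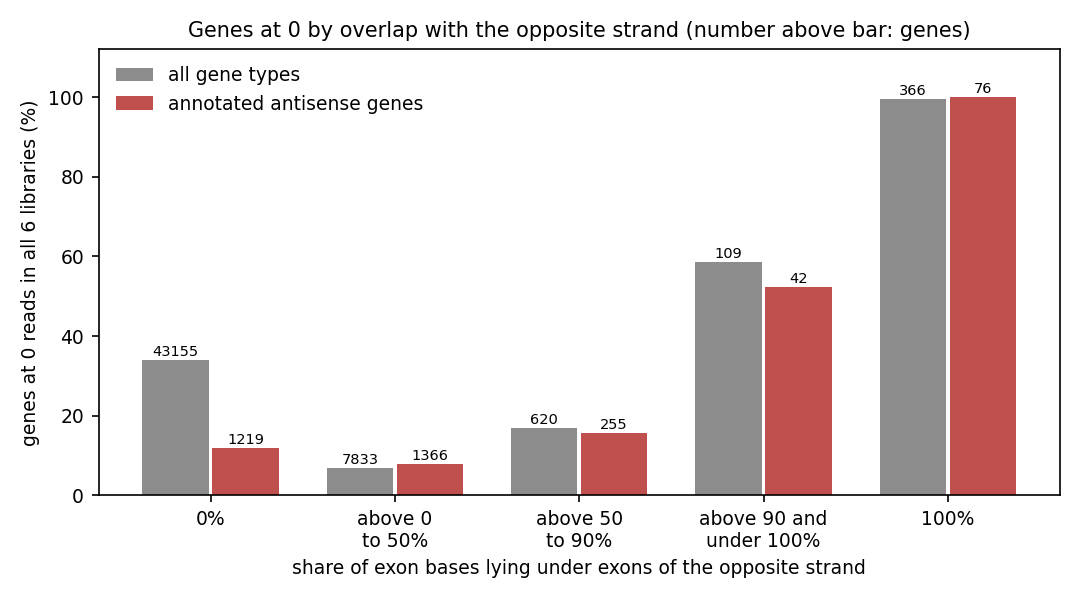
Percentage of genes with 0 reads in all 6 libraries (y axis) by the share of their exon bases that lie under exons of the opposite strand (x axis), for all gene types (grey) and annotated antisense genes (red); the number above each bar counts its genes. With no cover 33.9% of all genes were at 0, and with complete cover 99.5% were.

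Most opposite-strand transcripts were rare in this tissue. 31 of 300 were at 0 in every library, 269 had at least 1 read, 60 reached a mean of 1 CPM and 7 a mean of 10 CPM. Reads of all 300 together made up between 0.0665% and 0.0725% of each library, and 42.3% of them came from Oip5os1 alone. 157 transcripts passed the low-count filter and were tested, with a median level of 0.612 CPM. The highest mean among the 143 not tested was 0.221 CPM. Because levels of different genes can be compared only per length, each os level was divided by its exon length in kb and set against its partner. Over the 153 pairs with both genes tested, the median os transcript stood at 6.92% of its partner per kb. Exon bases shared by the 2 genes added no reads but count in both lengths, which lowers both values. Unspliced partner RNA can raise the os value where os exons lie over partner introns. The median was 14.3% over the 23 pairs with no os exon base inside any other gene. It was 4.85% over the 64 pairs whose os transcript lies within its partner. In 11 pairs the os transcript was the higher one, among them Oip5os1 (7.5 times Oip5 per kb), Rab26os (4.69 times Rab26) and Brip1os (3.78 times Brip1). Oip5os1 and Brip1os have no exon base inside their partner, whereas Rab26os lies wholly in Rab26 introns.

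**Figure D2:**
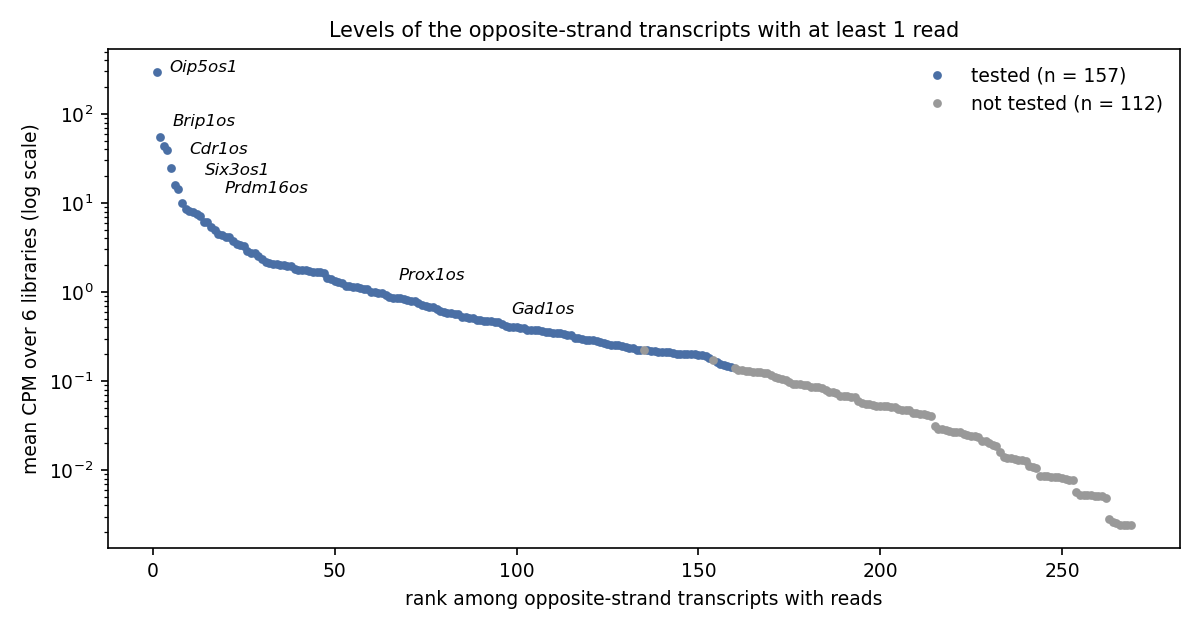
Mean CPM over the 6 libraries (y axis, log scale) of the 269 opposite-strand transcripts with at least 1 read, ranked from highest to lowest (x axis), in blue where tested and grey where not. Oip5os1 stands alone at 296 CPM, and Prox1os and Gad1os lie below 1 CPM.

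Oip5os1 (ENSMUSG00000085438), also known as Cyrano, is a conserved non-coding RNA that carries an extensively paired site for the microRNA miR-7 and triggers its degradation. It was at 324, 320 and 309 CPM in the wild-type libraries and at 283, 257 and 283 CPM in the double-knockout libraries. All 3 double-knockout libraries lie below all 3 wild-type libraries, yet the log2 fold change of -0.21 ± 0.06 (SE) had an adjusted p of 0.116 and was not called. Oip5, which encodes a protein needed for loading centromeric histone, averaged 8.02 ± 0.86 CPM in the wild-type group and 8.87 ± 1.08 CPM among double-knockout libraries (SD, n = 3 each), which overlapped. The pair is convergent and shares no exon base, and no Oip5os1 exon base lies inside any other gene. Cdr1os, the host transcript of a circular RNA that binds miR-7, was at 57.2, 46.7 and 48.0 CPM in wild type and 43.8, 41.6 and 27.6 CPM in the double knockout. Here too the groups do not overlap, and the log2 fold change of -0.43 ± 0.16 (SE) was not called (adjusted p = 0.287). Without double-knockout library 3, the lowest, it was -0.24 (adjusted p = 0.252). Its partner Cdr1 was at 0 in all 6 libraries: Cdr1 is the 1 partner whose exons lie wholly under an os exon.

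That stretch is part of the Cdr1os gene, whose circular RNA Cdr1as is known for its many miR-7 sites, and its reads were dropped. In GENCODE M21 sequence it is 1554 bases long and holds 79 matches to the miR-7 seed on the Cdr1os strand, of 125 in the longest Cdr1os transcript of 19658 bases. The Cdr1os level above therefore comes from the rest of the gene, which holds further matches. A Cdr1os transcript of 3354 bases has 123, of which 79 lie in the dropped stretch. Whether the counted reads include circular RNA was not tested. The longest Oip5os1 transcript (8300 bases) holds 2 seed matches, and apart from Cdr1os no opposite-strand transcript holds more than 3 (GTCTTCC, searched on the transcribed strand of all 299 names). The microRNA (RefSeq, GRCm38.p6, chr7:78888295-78888317, plus strand), the Oip5os1 site at transcript base 2935 and a 90-base stretch of the Cdr1 exon read on the Cdr1os strand are shown because they tell apart a single long site and a repeat of short ones. Capitals mark the seed (bases 2 to 8) in the microRNA, the 3′ run and the seed match in the Oip5os1 site and seed matches in the Cdr1os stretch.
mmu-miR-7a-5p: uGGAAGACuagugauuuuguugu
Oip5os1 site: ACAACAAAATCACcaatGTCTTCCa
Cdr1os stretch: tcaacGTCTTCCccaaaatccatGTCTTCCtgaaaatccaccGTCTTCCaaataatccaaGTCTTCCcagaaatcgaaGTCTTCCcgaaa
The Oip5os1 site pairs over 13 bases at the 3′ end of the microRNA and again over its seed, with 4 bases between, and the Cdr1os stretch holds 5 seed matches.

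Apart from Prdm16os, described below, the other transcripts among the 12 most abundant did not pass the test in either direction. Brip1os, which starts 177 bases from Brip1, a DNA repair helicase gene, was at 51.6 to 57.8 CPM in wild type and 52.5 to 59.8 CPM in the double knockout. Six3os1, which overlaps the start of the forebrain and eye homeobox gene Six3, was at 33.6 to 41.4 and 38.3 to 43.0 CPM. Its log2 fold change of 0.15 ± 0.09 (SE) lies beside 0.15 ± 0.12 (SE) for Six3, with overlapping groups in both, and 29.6% of the Six3os1 exon bases lie in Six3 introns. Slc7a6os (24.6 CPM over all libraries) and Wdr83os (9.91 CPM) are protein coding, and their log2 fold changes were -0.09 and 0.03. Brd3os, also annotated as protein coding, was at 9.28, 9.15 and 9.26 CPM in wild type and 8.27, 8.27 and 7.42 CPM in the double knockout, without overlap, and was not called (adjusted p = 0.366). Rab10os, Srrm4os, Zmiz1os1 and Fbxl12os had adjusted p of 0.553 or more. Zmiz1, a transcriptional coregulator gene, was at log2 0.36 ± 0.08 (SE, adjusted p = 0.0526) and was called in 8 of 14 other fits.

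Between the groups, 2 opposite-strand transcripts were called at an adjusted p under 0.05, both higher in the double knockout (Prdm16os and Prox1os) and 0 lower. This is 1.27% of the 157 tested, against 2.68% of all 23628 genes tested (1.34% higher and 1.34% lower). At an unadjusted p under 0.05 there were 8 higher and 11 lower, and 13.3% of all genes passed that threshold. DESeq2 called 3, adding Tnk2os. The median log2 fold change of the tested os transcripts was 0.06, against 0.00 over all genes tested, and 14 were higher and 17 lower in every double-knockout than in every wild-type library. These 31 are 19.7% of those tested, and of all genes tested 19.5% did not overlap (9.3% higher and 10.2% lower). Precision differed: the median standard error of a log2 fold change was 0.30 for os transcripts, 0.10 for partners and 0.14 for all genes. Of all tested genes below 1 CPM, where 97 of the 157 os transcripts lie, 0.63% were called, and of those above, 3.57%.

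Of the partners, 17 of 211 tested were called (8.06%), 8 higher and 9 lower, beside the same 2.68% of all genes. A mean of 1 CPM was reached by 189 of the 258 partners, and 3.57% of all tested genes at that level were called. Beside 13 of the 17 stood at least 1 tested os transcript, 17 in all, and 15 of these 17 had the sign of their partner. Over all 153 pairs with both genes tested, 94 (61.4%) did. Several of the 17 share a partner or lie in partner introns, so they are not independent of each other or of the partner. Each partner gene is described with its own transcripts below, the higher ones first. In bulk tissue, fewer cells of a type and less RNA per cell cannot be told apart, and this holds for every difference below.

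Prox1os (ENSMUSG00000079045) rose with Prox1, a homeobox gene of neuronal and lymphatic differentiation. Prox1os was at 0.563, 0.327 and 0.624 CPM in the wild-type libraries and at 1.37, 1.30 and 1.66 CPM in the double-knockout libraries, from 21 to 115 reads per library. All double-knockout libraries lie above all wild-type libraries, and the change was 2.86-fold (log2 1.52 ± 0.27 SE, adjusted p = 0.0215). Prox1 itself was at 86.5, 79.7 and 95.2 CPM and at 163, 152 and 194 CPM, a log2 fold change of 0.96 ± 0.10 (SE, adjusted p = 0.00146). The 2 genes overlap head to head, with starts 418 bases apart: 16.1% of the os exon bases lie in a Prox1 exon, where no reads were counted, and 83.9% outside Prox1. The call for Prox1os was lost with Y-linked expression as a covariate (adjusted p = 0.0711), without double-knockout library 1 (0.0654), without wild-type library 1 (0.0696) and without wild-type library 2 (0.0535). The log2 fold change lay between 1.28 and 1.71 in the 13 other fits that tested it. With a mean of at least 1 CPM required, Prox1os was not tested.

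Prdm16os (ENSMUSG00000085069) rose with Prdm16, which encodes a zinc finger chromatin regulator of neural progenitors. Prdm16os was at 10.3, 10.3 and 13.2 CPM in the wild-type libraries and 18.03, 16.1 and 18.7 CPM in the double-knockout libraries. The 2 groups are apart, with wild-type library 3 the nearest to the double knockout, and the change was 1.57-fold (log2 0.65 ± 0.12 SE, adjusted p = 0.0253). Prdm16 was at 72.8, 78.6 and 89.6 CPM and at 123, 122 and 125 CPM (log2 0.62 ± 0.07 SE, adjusted p = 0.00299). The 2 genes point away from each other with starts 703 bases apart, and no os exon base lies inside Prdm16 or any other gene. Its call was lost with the Y-linked covariate (adjusted p = 0.0564), without double-knockout library 1 (0.0894), without wild-type library 1 (0.117) and without wild-type library 2 (0.103), with a log2 fold change between 0.58 and 0.78 over all alternatives.

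Both Prdm16 starts are printed because the log2 fold changes of the 2 genes differed by less than their errors. The windows are RefSeq sequence (GRCm38.p6) from 250 bases before to 50 bases after each start, at chr4:154637330-154637629 on the plus strand for Prdm16os and chr4:154636824-154637123 on the minus strand for Prdm16. Capitals mark the first 50 transcribed bases.
Prdm16os: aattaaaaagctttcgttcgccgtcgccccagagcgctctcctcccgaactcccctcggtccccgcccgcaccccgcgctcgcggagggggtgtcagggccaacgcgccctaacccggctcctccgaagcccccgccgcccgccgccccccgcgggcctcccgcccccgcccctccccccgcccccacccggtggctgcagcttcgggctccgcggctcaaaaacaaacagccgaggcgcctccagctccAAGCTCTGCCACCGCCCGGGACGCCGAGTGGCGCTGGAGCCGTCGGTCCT
Prdm16: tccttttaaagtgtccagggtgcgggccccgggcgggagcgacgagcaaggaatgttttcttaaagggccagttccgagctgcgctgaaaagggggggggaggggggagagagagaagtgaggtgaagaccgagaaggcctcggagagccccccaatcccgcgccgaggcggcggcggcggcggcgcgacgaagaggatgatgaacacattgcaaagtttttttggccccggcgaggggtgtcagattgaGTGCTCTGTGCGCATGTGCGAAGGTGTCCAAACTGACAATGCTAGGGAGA
The Prdm16os window holds 39 CG pairs and the Prdm16 window 24, and neither holds TAATTA, the core letters that DLX homeodomains are known to bind.

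Lhx1, a LIM homeobox gene, was at 5.77, 6.27 and 7.30 CPM in wild type and 10.6, 11.7 and 9.75 CPM in the double knockout, and was called higher (log2 0.73 ± 0.12 SE, adjusted p = 0.0157). The Lhx1 call was lost without double-knockout library 1 (adjusted p = 0.0582) or 2 (0.0656) and without wild-type library 1 (0.0774) or 2 (0.0737). Lhx1os was at 0.666, 0.731 and 0.702 CPM and at 1.02, 1.32 and 0.663 CPM. Double-knockout library 3 is as low as the lowest wild-type library, and the log2 fold change of 0.51 ± 0.27 (SE) was not called (adjusted p = 0.5). Without that library it was 0.74 (adjusted p = 0.179). No os exon base lies inside Lhx1, and the starts are 125 bases apart. The 2 promoter windows share 225 bases, shown in capitals in the Lhx1os window (chr11:84525410-84525709, plus strand, GRCm38.p6), because the same DNA holds the starts of both genes. The shared stretch includes the first 50 transcribed bases of each gene.
Lhx1os: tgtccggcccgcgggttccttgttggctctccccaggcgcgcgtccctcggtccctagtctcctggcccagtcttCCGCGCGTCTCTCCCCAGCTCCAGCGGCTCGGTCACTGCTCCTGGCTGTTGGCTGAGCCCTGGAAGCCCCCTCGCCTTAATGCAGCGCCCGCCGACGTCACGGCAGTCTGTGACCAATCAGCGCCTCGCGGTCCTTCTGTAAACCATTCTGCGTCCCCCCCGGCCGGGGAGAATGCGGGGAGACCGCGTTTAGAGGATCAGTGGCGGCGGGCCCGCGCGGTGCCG
Such overlap was found in 31 of the 150 pairs with a RefSeq window for both genes. RefSeq held a window for 179 of the os names and 209 of the partners.

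Otx2, a homeobox gene of early forebrain and midbrain, was at 10.4, 13.8 and 16.9 CPM in wild type and 34.0, 38.9 and 39.0 CPM in the double knockout (log2 1.44 ± 0.16 SE, adjusted p = 0.00188). Otx2os1 was at 0.307, 0.0778 and 0.312 CPM and at 0.493, 0.798 and 0.519 CPM. Its groups do not overlap, wild-type library 2 is the lowest with 5 reads, and the log2 fold change of 1.37 ± 0.47 (SE) was not called (adjusted p = 0.228). In all, 5.83% of its exon bases lie in Otx2 exons and 37.4% in Otx2 introns. The summed level of the diencephalic markers, most of whose rise is Otp, was also higher in all 3 double-knockout libraries, and its part in the Otx2 and Lhx1 differences was not tested.

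TAATTA (both strands, which read the same) was found in 5.29% of all 32851 RefSeq windows of this length, in 5.16% of the 213 os windows and in 2.69% of the 297 partner windows. Among the 38 windows of pairs with a call, which cover 24 genes, 3 held it, in 2 genes: Arhgap33os and Otx2. Other genes of these pairs, among them Prox1os, Otx2os1 and Zeb2os, had no window and were not searched. Of the 4 Otx2 windows 2 held it, and the one at chr14:48665060-48665359 (minus strand, GRCm38.p6) held 3 copies, shown in capitals.
Otx2: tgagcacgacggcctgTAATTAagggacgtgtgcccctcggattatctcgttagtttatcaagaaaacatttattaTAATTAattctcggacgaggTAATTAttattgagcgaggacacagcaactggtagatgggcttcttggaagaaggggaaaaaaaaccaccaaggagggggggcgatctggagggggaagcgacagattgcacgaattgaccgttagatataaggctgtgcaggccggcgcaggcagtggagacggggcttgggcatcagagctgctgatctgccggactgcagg
A match is a run of letters and not a measured binding site.

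The other 4 partners called higher have no tested os transcript. Bcas1, known from myelinating cells, was at 1.12 to 1.64 CPM in wild type and 2.60 to 3.68 CPM in the double knockout (log2 1.29), and Bcas1os1 and Bcas1os2 had at most 11 reads in any library. Far2, a fatty acyl-CoA reductase gene, rose by 0.64 on the log2 scale. Tmcc3, an endoplasmic reticulum membrane protein gene, rose by 0.58 and Fhad1 by 1.03. Their transcripts Far2os1, Far2os2, Tmcc3os, Fhad1os1 and Fhad1os2 had between 0 and 11 reads per library, too few for a difference to be detectable at this depth. The Bcas1 call was lost without double-knockout library 1 (adjusted p = 0.0562) or wild-type library 2 (0.0704) or 3 (0.0622). That of Fhad1 was lost without double-knockout library 1 (0.0654) or 2 (0.0581) or wild-type library 1 (0.0765) or 2 (0.0719), and that of Tmcc3 without wild-type library 2 (0.0551) or 3 (0.0524).

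**Figure D3:**
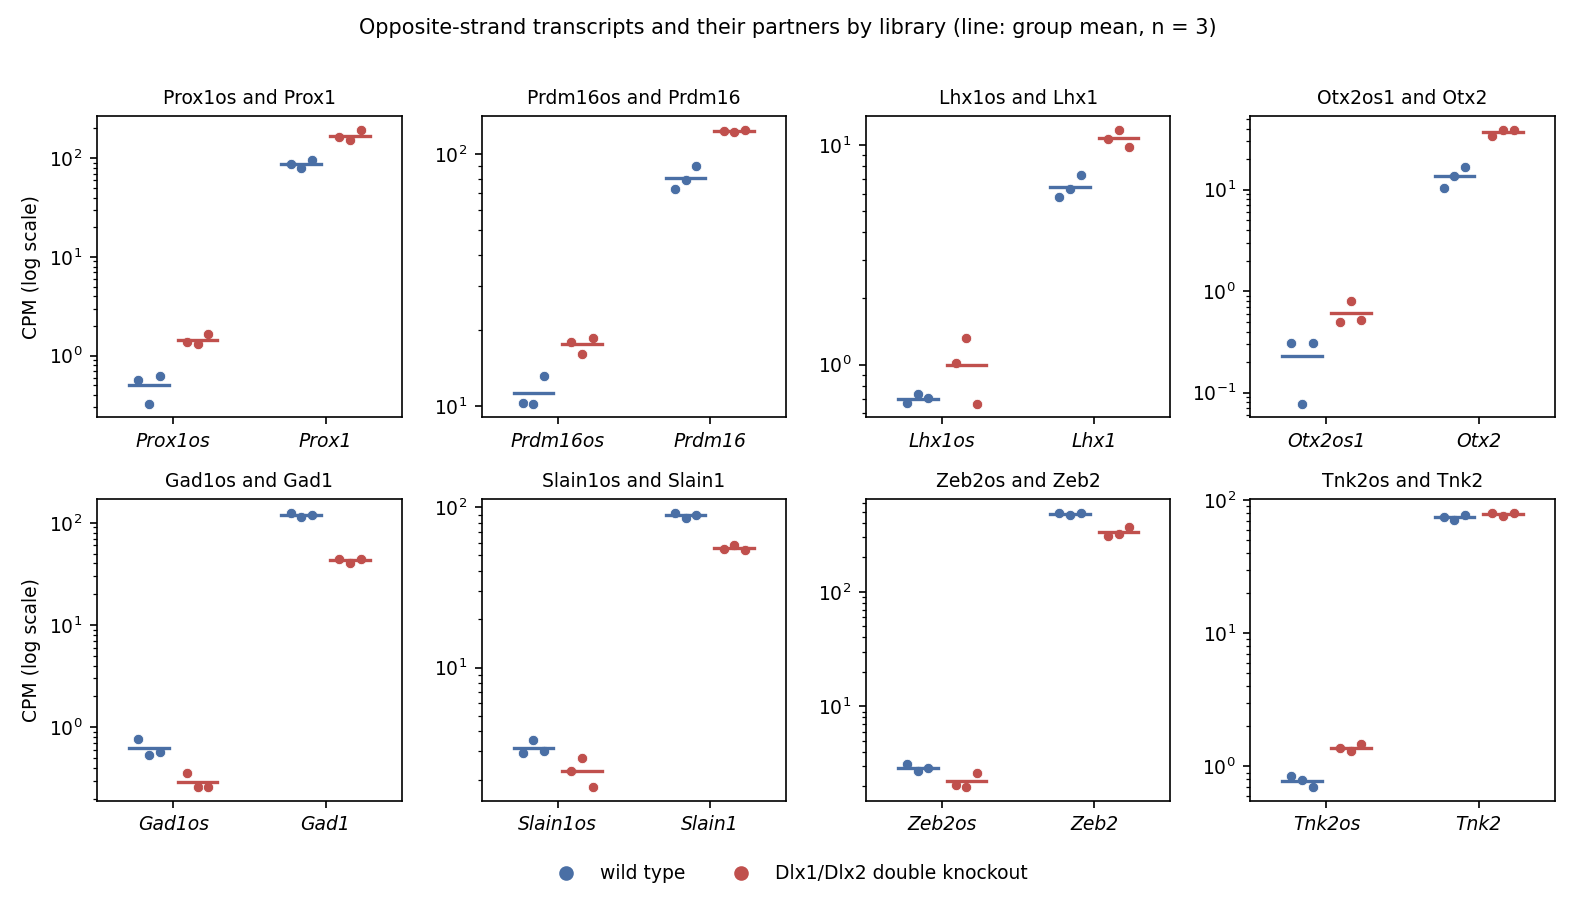
CPM (y axis, log scale, a separate scale in each panel) of 8 opposite-strand transcripts and their partners in the 3 wild-type (blue) and 3 double-knockout (red) libraries; lines are group means. Prox1os and Prdm16os lie higher in every double-knockout library together with their partners, Gad1os, Slain1os and Zeb2os lie lower with theirs, and Tnk2os lies higher beside a partner whose groups overlap.

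Gad1, which encodes the GABA-synthesising enzyme GAD67, had the largest fall among the 9 partners called lower. Gad1 was at 125, 115 and 119 CPM in wild type and 44.2, 40.3 and 44.7 CPM in the double knockout (log2 -1.47 ± 0.06 SE, adjusted p = 6.83e-06). Gad1os was at 0.768, 0.529 and 0.577 CPM and at 0.354, 0.260 and 0.260 CPM, from 15 to 45 reads per library. The groups do not overlap, but the log2 fold change of -1.09 ± 0.29 (SE) was not called (adjusted p = 0.111). Of the Gad1os exon bases 89.4% lie outside Gad1 and 10.6% in its introns. Per 1000 Gad1 reads there were 4.61 to 6.15 Gad1os reads in wild-type and 5.81 to 8.01 in double-knockout libraries, with overlapping groups.

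Slain1, a gene for a microtubule-associated protein, fell from 89.2 ± 3.0 to 55.5 ± 2.1 CPM (SD, n = 3 each; log2 -0.68, adjusted p = 0.000272). Slain1os was at 2.92, 3.52 and 3.04 CPM in wild type and 2.26, 2.74 and 1.80 CPM in the double knockout. Its groups do not overlap, and the log2 fold change of -0.48 ± 0.18 (SE) was not called (adjusted p = 0.279). Zeb2, a zinc finger homeobox gene needed by cortical interneurons, fell from 482 ± 8 to 330 ± 33 CPM (SD, n = 3 each; log2 -0.55, adjusted p = 0.00626). Zeb2os was at 3.14, 2.71 and 2.87 CPM and at 2.06, 1.98 and 2.61 CPM, again without overlap and not called (log2 -0.39 ± 0.16 SE, adjusted p = 0.329). Slain1os has 95.0% of its exon bases in Slain1 introns and Zeb2os 67.2% in Zeb2 introns, so unspliced partner RNA can count in both.

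The remaining partners called lower carry 1 to 3 transcripts each. Bach2, a transcription factor gene, fell by 0.36 on the log2 scale, and Bach2os (24.6% of exon bases in Bach2 exons, 75.4% in introns) was at 0.842 to 0.996 CPM in wild type and 0.505 to 0.833 CPM in the double knockout, apart but not called (adjusted p = 0.433). Grip1, a glutamate receptor scaffold gene, fell by 0.44, beside Grip1os1, Grip1os2 and Grip1os3 with log2 fold changes of -0.53, -0.43 and -0.35, all with overlapping groups. The first 2 lie wholly in Grip1 introns and 18.9% of Grip1os3 does. Plxna4, a semaphorin co-receptor gene, fell by 0.33. Its 3 transcripts, which lie wholly inside it, had log2 fold changes of -0.34, -0.18 and 0.27 (Plxna4os1, Plxna4os2 and Plxna4os3), so members beside 1 partner did not share a sign. Kcnd3, a potassium channel gene, fell by 0.58, and Kcnd3os had a log2 fold change of -0.24 ± 0.31 (SE). Cdk19, a Mediator kinase gene, fell by 0.30, and Cdk19os had 0.31 ± 0.40 (SE) with 7 to 17 reads per library and 76.2% of its bases in Cdk19 introns. Arhgap33 fell by 0.21 with an adjusted p of 0.0481, lost in 9 of 14 other fits. Arhgap33os, outside its partner, had -0.15 ± 0.30 (SE). With the Y-linked covariate the calls of Arhgap33, Bach2, Cdk19 and Plxna4 were lost (adjusted p of 0.139, 0.0549, 0.0626 and 0.0564). That of Bach2 was also lost without wild-type library 1 (0.056) or 3 (0.0522), and that of Plxna4 without double-knockout library 1 (0.114) or 2 (0.111) or wild-type library 1 (0.147) or 3 (0.109). Cdk19 lost its call without any library but double-knockout library 3 (0.0575 to 0.0966), and so did Arhgap33 (0.13 to 0.207).

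Tnk2os (ENSMUSG00000075265) came close to the threshold beside a partner whose groups overlap. Tnk2os was at 0.853, 0.793 and 0.702 CPM in wild type and 1.37, 1.30 and 1.47 CPM in the double knockout. Tnk2, a non-receptor tyrosine kinase gene, was at 74.8, 70.8 and 76.7 CPM and at 79.7, 75.5 and 80.1 CPM. The Tnk2os groups are apart and the Tnk2 groups are not, with log2 fold changes of 0.82 ± 0.18 (SE, adjusted p = 0.0596) and 0.08 ± 0.05 (SE, adjusted p = 0.582). Tnk2os was called by DESeq2 and where genes needed a mean of 1 CPM to be tested, and its log2 fold change lay between 0.75 and 0.88 over all alternatives. Of its exon bases 94.9% lie in Tnk2 introns.

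A direct comparison within each library is the ratio of os to partner reads, which needs no scaling between libraries. It was computed for the 151 pairs with a mean of at least 10 reads for both genes, and tested with an exact two-sided permutation test, which with 3 against 3 cannot go below p = 0.1. In 18 pairs (11.9%) the groups did not overlap, 9 higher and 9 lower in the double knockout. With no difference a share of 0.1 would be apart, so this count is near that share. Per 1000 Tnk2 reads there were 11.4, 11.2 and 9.14 Tnk2os reads in wild type and 17.2, 17.2 and 18.4 in the double knockout, a log2 difference of 0.73 (exact permutation p = 0.1). Per 1000 Prox1 reads there were 6.51, 4.10 and 6.55 Prox1os reads and 8.43, 8.58 and 8.53. The Prox1os groups are apart, with a log2 difference of 0.59 (exact permutation p = 0.1) that was 0.37 without wild-type library 2. By contrast Prdm16os stood at 130 to 147 reads per 1000 Prdm16 reads among wild-type and 132 to 150 among double-knockout libraries, a log2 difference of 0.03 (SD 0.09 in wild type and 0.10 in the double knockout, n = 3 each).

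Of the 68 pairs with a mean of at least 50 reads for both genes, 10 did not overlap, 4 higher and 6 lower. Beside this stand 11.9% of all 151 pairs and the share of 0.1 expected with no difference. The ratio was lower without overlap for Oip5os1 (log2 difference -0.35) and for Lrp8os3 (-0.34), a transcript starting 197 bases from the lipoprotein receptor gene Lrp8, and likewise for Atad3aos (-0.31), N4bp2os (-0.23), Far1os (-0.16) and Brd3os (-0.12). Besides Tnk2os and Prox1os it was higher without overlap for Sap30bpos (0.40), which lies in introns of Sap30bp, and for Dio3os (0.27). For Rab26os (0.52), Stamos (0.36) and H3f3aos (-0.58) the groups overlapped. H3f3aos ran from 4.54 to 9.25 reads per 1000 H3f3a reads in wild type alone, and its difference was -0.15 without double-knockout library 3.

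**Figure D4:**
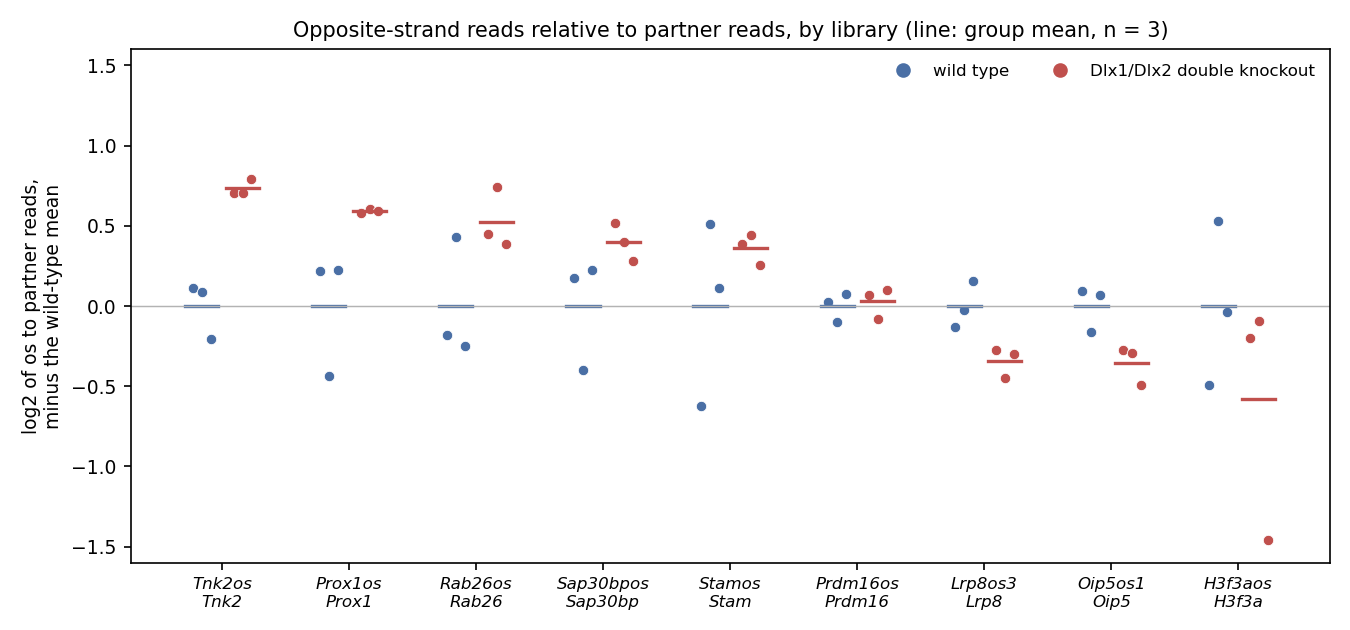
Log2 ratio of opposite-strand to partner reads in each library, minus the wild-type mean of that pair (y axis), for 9 pairs in the 3 wild-type (blue) and 3 double-knockout (red) libraries; lines are group means. Tnk2os and Prox1os lie above and Oip5os1 and Lrp8os3 below their wild-type libraries, and Prdm16os stays with its partner.

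The remaining large fold changes came from transcripts with few reads. Kank4os had 6 to 11 reads in each wild-type library and 15 to 21 in each double-knockout library (log2 1.19 ± 0.38 SE, adjusted p = 0.188), with Kank4 at 0.01. Pard3bos1 (1.19), Rapgef4os3 (1.0) and Recql5os1 (0.999) were likewise fitted higher, and Macrod2os2 (-1.02) and Rab11fip4os2 (-1.04) lower. These 5 had an adjusted p of 0.262 or more. They were picked by their fold change, which favours groups that are apart. In 4 of them the groups did not overlap, Rapgef4os3 being the exception, where 19.5% of all genes tested did not overlap. All 6 lie inside their partner, and all but Pard3bos1 (70.6%) have every exon base in its introns.

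Across the 153 pairs with both genes tested, 94 (61.4%) had the same sign. The correlation of the 2 log2 fold changes across pairs was r = 0.538 (n = 153), and r = 0.629 over the 59 pairs whose os transcript reached 1 CPM. This is a description across pairs, which share the 6 libraries and, for 31 partners with 2 or more transcripts, the partner. By arrangement, 126 os transcripts are divergent from their partner with a median of 699.5 bases between starts, 122 lie within it, 42 are convergent and 9 enclose it. At 1 CPM or more r was 0.729 for 27 divergent pairs, 0.666 for 20 within their partner and 0.24 for 11 convergent pairs, the last being 0.602 over all 25 convergent pairs tested. With no os exon base inside the partner as annotated in GENCODE M21, r was 0.743 over 14 pairs at 1 CPM or more and 0.418 over all 31 tested. The annotation used for counting may differ, and partner reads beyond its annotated ends were not examined. With over 50% of the os bases in partner introns it was 0.679 over 23 and 0.521 over 69.

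**Figure D5:**
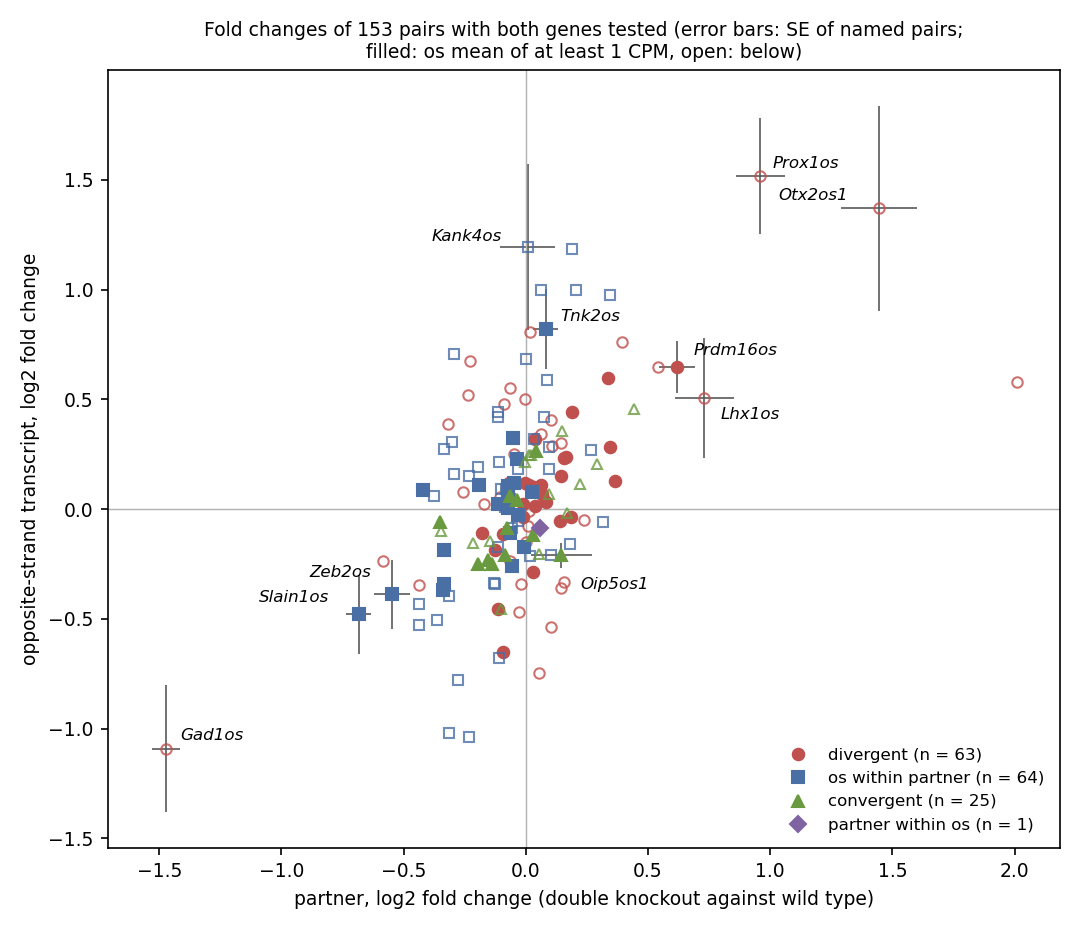
Log2 fold change, double knockout against wild type, of the opposite-strand transcript (y axis) against that of its partner (x axis) for 153 pairs, by arrangement (colour and shape); filled points have an os mean of at least 1 CPM, and bars are SE of the named pairs. Prox1os, Prdm16os, Otx2os1 and Lhx1os lie at the upper right and Gad1os at the lower left, whereas Tnk2os and Kank4os lie above 0 beside a partner near 0.

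A list of transcription factor genes, chosen by a set of family names that does not include Prox1 or Bach2, holds the partners of 46 pairs, 38 genes. Of their os transcripts 11 were at 0 in all libraries and 18 were tested, with 1 called higher (Prdm16os) and 0 lower. Of the 25 partners tested, Lhx1, Otx2 and Prdm16 were called higher and Zeb2 lower, where 2.68% of all genes tested were called. The transcripts at 0 include those of Hoxa11, Hoxb5, Gata5, Gata6, Hand2, Hnf4a and Wt1, genes of other body regions and organs. Emx2os, divergent from the cortical homeobox gene Emx2, was at 1.33, 1.70 and 1.89 CPM in wild type and 2.11, 3.10 and 1.499 CPM in the double knockout, with overlapping groups. Pax6os1 ranged from 0.273 to 0.762 CPM in wild type alone (log2 -0.47 ± 0.41 SE), beside Pax6 at -0.03. Foxd2os (log2 0.58, 7 to 12 reads per library) stood beside Foxd2 with 2.01 ± 0.46 (SE), not called (adjusted p = 0.062).

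A related naming style, in which as or ot follows a gene name, picked 9 further genes, 8 of them tested, with 0 called higher and 0 lower by edgeR. By spelling alone this list also took Hras and Vipas39, which are not named for an opposite strand. Names in ot, among them Leprot and Sox1ot, stand for overlapping transcript and do not name a strand. Sox1ot, an overlapping transcript at the neural progenitor gene Sox1, was at 205, 183 and 191 CPM in wild type and 245, 220 and 264 CPM in the double knockout, apart but not called (log2 0.33 ± 0.07 SE, adjusted p = 0.0603).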

How the data were processed

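The table holds whole-number read counts per gene for 6 libraries, deposited by the authors as raw counts and, per the submitters' processing notes, made with featureCounts on GRCm39. The aligner, annotation release and strand setting are not given in the sources used here. The build differs from that of GENCODE M21 (GRCm38), so M21 was used by gene ID for gene type, exon overlap and distances only.

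Genes were filtered with filterByExpr (minimum count 10, minimum total 15), scaled by TMM and tested with edgeR 4.0.16 (quasi-likelihood; R 4.3.3), Benjamini-Hochberg over all 23628 genes, called at an adjusted p under 0.05. The test was checked on simulated data. CPM values are TMM-scaled. Ratios used 0.5 added to each count. DESeq2 1.42.0, limma 3.58.1 (voom), other scalings, filters, covariates and left-out libraries were alternatives.

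The members and lists were chosen with earlier results of these data known. Named os transcripts are those called, the 12 highest in mean CPM, the 8 others with the largest fold change, those whose partner was called, and the 8 largest changes of ratio. Others (such as Emx2os, Pax6os1, Foxd2os and Sox1ot) were chosen after their values were seen. No 2 libraries held identical counts.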

Additional observations from a re-analysis of the deposited data

How the results depend on the processing

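With low counts, depth limited the os transcripts: 97 of 157 tested were below 1 CPM. Of 19 named genes called, 9 kept the call in all 14 other fits, 10 lost it in at least 1 and 0 changed sign. Of 60 not called, 2 (Zmiz1 and Tnk2os) were called in at least 1. Calls over all genes numbered 634, 1135 with DESeq2, 357 with the Y-linked covariate, 275 at an adjusted p under 0.01 and 309 to 749 with a library left out. Os calls numbered 2, and 0 with the Y-linked covariate, 0 at an adjusted p under 0.01 and 0 to 2 with a library left out. Partner calls numbered 17, 27 with DESeq2, 10 at the stricter threshold and 11 to 23 with a library left out. With total count scaling 60.4% of 646 calls were higher, against 317 of 634, and the median gene shifted by 0.029 (log2).

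Same-numbered libraries correlated at -0.0694, -0.0022 and 0.0018 in their deviations from the group means, and differently numbered ones at -0.0976 to 0.0973. The labels do not say whether replicate numbers mark litters. Such correlations cannot show that no litter or batch was shared. With the replicate block, 690 genes, 2 os transcripts and 19 partners were called.

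Of the 60 named genes not called, 10 took the other sign in at least 1 fit, and the cause was not tested. With the Y-linked covariate Kank4 was at -0.003 and Wdr83os at -0.043. With a library left out, log2 fold changes ranged from -0.321 to 0.159 for Arhgap33os, -0.033 to 0.072 for Fbxl12, -0.013 to 0.038 for Kank4, -0.417 to 0.089 for Kcnd3os, -0.564 to 0.076 for Plxna4os2, -0.149 to 0.6 for Plxna4os3, -0.011 to 0.14 for Rab10os, -0.013 to 0.252 for Rab26os, -0.006 to 0.105 for Srrm4 and -0.103 to 0.138 for Wdr83os. With 5 added to each count, the log2 ratio difference of Kank4os was 0.852 and that of Recql5os1 0.643, a larger constant being added to few reads. The os share of a pair's reads was not reported, and its alternative without an added constant was not run.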
